A study of Homo sapiens with 6 samples.

Results

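The 10 genes described here encode abundant plasma proteins that hepatocytes secrete, and they were taken by symbol from a table of 58735 genes. HP, HPR, HPX, ORM1, ORM2 and LRG1 are the 6 positive members, whose plasma levels rise in inflammation, and ALB, TTR, AHSG and RBP4 are the 4 negative members, whose levels fall. Each symbol matched 1 row, and all 10 passed the filter on low counts, which left 17844 genes. Polyadenylated RNA was sequenced from HepaRG, a human hepatic progenitor line that forms hepatocyte-like and biliary-like cells in DMSO. All cells were kept in 1.8% DMSO to differentiate, received siRNA for 48 h, and were then given 800 µM oleic acid together with palmitic acid at 400 µM, for 24 h. The 6 libraries carry the labels PTPF (n = 3) and STATF (n = 3). The design text names siRNAs against PTPRD and STAT3, but the labels do not spell out which siRNA either group received, and no library labelled as control siRNA was analysed here.

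STAT3 averaged 443 ± 12.2 CPM (counts per 1000000 counts of the library, after scaling between libraries) in the PTPF-labelled and 119.6 ± 10.6 CPM in the STATF-labelled libraries (SD, n = 3 each). A lower STAT3 level thus went with the label STATF (log2 fold change of PTPF over STATF 1.89, edgeR adjusted p = 2.47e-18). PTPRD averaged 11.5 ± 1.37 CPM in the PTPF-labelled and 11.5 ± 0.603 CPM in the STATF-labelled libraries (SD, n = 3 each), so no lower PTPRD level matched the label PTPF, and each direction below compares libraries by their labels alone. The libraries held between 33225627 and 40796767 counts. All 10 hepatocyte markers were detected, SERPINA1 at 23741 ± 2075 CPM with PTPF labels and 14464 ± 500.6 CPM with STATF labels. Of these markers 2 were called higher (SERPINA1 at a log2 fold change of 0.71, ASGR1 at 0.49) and 4 lower, among them CYP2C8 at -2.05 and TAT at -0.58. Over all genes tested, 10.1% were called higher and 11.6% lower. The part of these marker changes in the results below was not tested. Among 8 biliary or progenitor markers, CD24 was called higher (0.62), KRT19 (-0.57) and SOX9 (-0.40) lower, and EPCAM was at 0 in all 6 libraries. Their summed level was 299 to 334 CPM with PTPF labels and 287 to 304 CPM with STATF labels. CD24 averaged 185.1 ± 12.8 CPM with PTPF labels and 120.5 ± 2.41 CPM with STATF labels, and KRT19 75.7 ± 6.4 and 112.7 ± 10.3 CPM (SD, n = 3 each). Opposite changes thus offset each other in this sum. Of 7 mesenchymal markers ACTA2 was called lower (-0.35), and they summed to 24.7 to 27.4 CPM with PTPF labels and 31.6 to 34 CPM with STATF labels. Of 6 macrophage and 5 endothelial markers 2 each were tested and 0 called by edgeR, also 0 at an unadjusted p of 0.05, and VSIG4 was at 0 in all 6 libraries. Summed over the list, macrophage markers reached 1.13 to 2 CPM with PTPF labels and 2.31 to 2.43 CPM with STATF labels, and endothelial markers 1.04 to 1.53 and 1.42 to 2.03 CPM. In bulk RNA, fewer cells of a type and less RNA per cell cannot be told apart. The labels do not say whether replicates came from separate cultures, and a p-value here reflects only how much these libraries vary, which may be technical.

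The acute-phase response is the change in hepatic secretion that follows infection or injury. Interleukin-6 binds its receptor with gp130 (IL6ST), JAK kinases phosphorylate STAT3, and STAT3 and C/EBP factors act on the promoters of positive acute-phase genes. Negative acute-phase proteins are mostly carriers made at high rates in the resting liver. Many members bind a cargo: haptoglobin takes up free haemoglobin, hemopexin takes up haem, orosomucoids bind basic drugs, albumin binds fatty acids and bilirubin, and transthyretin and retinol-binding protein travel together with thyroxine and retinol.

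All 6 positive members were higher in the libraries labelled PTPF, by 1.43-fold (HPX) to 2.36-fold (HP). Of the 4 negative members, ALB and AHSG were lower and TTR and RBP4 did not pass the test. The AHSG groups overlapped, and its call was lost in 5 of 17 alternative settings, that of ALB in 0. The median log2 fold change was 0.81 over the positive and -0.22 over the negative members, beside 0.00 over all genes tested. Without HPR, whose level is uncertain because it shares sequence with HP, the middle value of the positive members was that of ORM1, 0.60. Of all genes tested, 21.6% were called at an adjusted p of 0.05 in edgeR's quasi-likelihood test, 10.1% as higher and 11.6% as lower. Higher genes were 46.6% of the calls, and 28.1% with library totals as the only scaling, which put the median of all genes at -0.06 and left the 6 positive members called. Among the 9402 genes with a mean of at least 10 CPM, a level that all members reach, 31.4% were called, 15.2% as higher and 16.2% as lower. The CPM ranges of the 2 groups did not overlap for all 6 positive members and for ALB. Over all genes tested, 35.7% had no overlap, 17.3% with higher values and 18.4% with lower values in PTPF-labelled libraries. Among the genes with a mean of at least 10 CPM, these were 22.7% with higher and 23% with lower values.

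**Figure D1:**
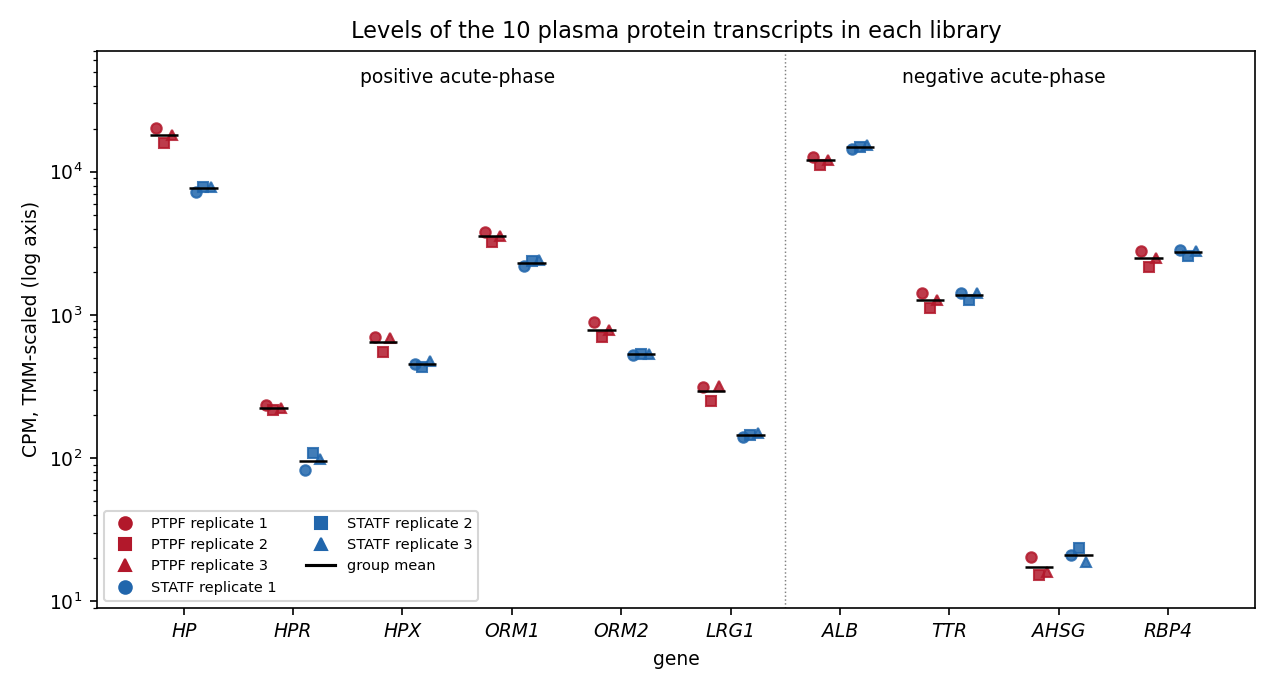
CPM of each member (x axis) in each library, on a log axis, with PTPF-labelled libraries in red, STATF-labelled libraries in blue and a bar at each group mean. The red points of the 6 positive members lie above the blue ones, while the points of TTR, AHSG and RBP4 overlap between groups.

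HP encodes haptoglobin, which binds haemoglobin released from red cells. The gene lies on chromosome 16 from 72054592 to 72061055 of GRCh38, on the plus strand. HP had 20135, 15968 and 18125 CPM in PTPF-labelled libraries, against 7225, 7845 and 7878 CPM in STATF-labelled libraries. The lowest PTPF-labelled library thus stood above the highest STATF-labelled library. Its log2 fold change was 1.24 (SE 0.078, 95% interval 1.08 to 1.40, edgeR adjusted p = 2.12e-12), the 87th highest of 17844. HP ranked 5th by counts among all genes in each PTPF-labelled library and 11th or 12th in each STATF-labelled library.

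Haptoglobin-related protein (HPR), found on a minor class of high-density lipoprotein, is encoded 2092 bases downstream of HP, from 72063148 to 72077246. HPR had 233, 216 and 223 CPM in PTPF-labelled libraries, against 82, 108.3 and 98.3 CPM in STATF-labelled libraries. These ranges did not overlap either, and the log2 fold change was 1.22 (SE 0.077, edgeR adjusted p = 5.6e-10). HPR took 1.23% ± 0.095 of the joint counts of HP and HPR with PTPF labels and 1.24% ± 0.12 with STATF labels (SD, n = 3 each). The difference in this share was smaller than the spread between replicates (two-sided exact permutation p = 0.9). Of all 50-base stretches in the annotated transcripts of HPR, 27.2% occur unchanged in transcripts of HP. HP had 72.4 to 88.1 times the counts of HPR. Since the handling of reads that match both genes is not given, HPR levels are uncertain, and the part of HP reads in them was not tested.

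The orosomucoids ORM1 and ORM2 (alpha-1-acid glycoproteins) are a tandem pair on the plus strand of chromosome 9, from 114323056 to 114326475 and from 114329869 to 114333252, 3393 bases apart. ORM1 had 3806, 3240 and 3548 CPM in PTPF-labelled libraries, against 2181.6, 2374 and 2410 CPM in STATF-labelled libraries. ORM2 had 888, 696 and 780 CPM in PTPF-labelled libraries, against 528, 530 and 538 CPM in STATF-labelled libraries. Both were higher in every PTPF-labelled library than in any STATF-labelled library. The log2 fold changes were 0.60 for ORM1 (SE 0.068, edgeR adjusted p = 1.31e-07) and 0.57 for ORM2 (SE 0.069, edgeR adjusted p = 7.58e-07). ORM2 took 18.2% ± 0.64 of the joint counts with PTPF labels and 18.7% ± 0.71 with STATF labels (SD, n = 3 each; two-sided exact permutation p = 0.5). Of the 50-base stretches of ORM1 and ORM2, 42% and 50.2% occur unchanged in the other gene, so how the counts divide between them is uncertain.

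Hemopexin (HPX), which binds free haem and delivers it to LRP1, lies on the minus strand of chromosome 11 from 6431049 to 6442617. HPX had 701, 548 and 694 CPM in PTPF-labelled libraries, against 456, 431 and 474 CPM in STATF-labelled libraries. The groups did not overlap, though the gap between them was smaller than the range within the PTPF-labelled libraries, where replicate 2 was low. HPX had the smallest increase of the 6, at 0.51 on the log2 scale (SE 0.077, edgeR adjusted p = 4.73e-05). LRG1, a leucine-rich glycoprotein that modifies transforming growth factor beta signalling in endothelium, lies on the minus strand of chromosome 19 from 4536409 to 4540474. LRG1 had 313, 252 and 319 CPM in PTPF-labelled libraries, against 139, 145 and 149.7 CPM in STATF-labelled libraries. Its log2 fold change was 1.02 (SE 0.072, edgeR adjusted p = 6.92e-10), and its groups did not overlap. Of the exon bases of LRG1, 2.74% are shared with AC011498.4 on the same strand, and reads there cannot be assigned to 1 of the pair.

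The 250 bases before the RefSeq start of HPX and LRG1 are shown, each with a short motif linked to interleukin-6 signalling, given in capitals with any C/EBP match. A window of the negative member RBP4 holds such a motif too and is described below. Both windows shown lie within the gene spans given above. HPX is from chr11:6440988-6441237 and LRG1 from chr19:4540037-4540286, both read on the minus strand from RefSeq's GRCh38.p14.
HPX: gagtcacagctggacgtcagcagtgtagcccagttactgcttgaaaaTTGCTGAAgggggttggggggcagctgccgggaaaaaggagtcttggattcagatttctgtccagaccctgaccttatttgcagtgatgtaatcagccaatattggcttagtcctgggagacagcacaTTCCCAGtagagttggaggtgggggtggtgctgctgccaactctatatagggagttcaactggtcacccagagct
LRG1: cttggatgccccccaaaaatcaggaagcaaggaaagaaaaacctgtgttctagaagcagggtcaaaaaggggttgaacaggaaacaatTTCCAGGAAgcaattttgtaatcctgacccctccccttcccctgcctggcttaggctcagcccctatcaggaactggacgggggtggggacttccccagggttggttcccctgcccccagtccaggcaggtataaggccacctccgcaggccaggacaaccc

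Promoters of 6 members were in the RefSeq table, and 4 motifs were searched on both strands of their 250 upstream bases. In HPX, CTGGGAA, the core of the type II interleukin-6 response element, was read on the opposite strand as TTCCCAG, from 75 to 69 bases before the start. The same window held TTNNGCAA, a C/EBP form, on the opposite strand as TTGCTGAA from 203 to 196 bases before the start. In LRG1, the STAT palindrome TTCNNNGAA was read as TTCCAGGAA from 162 to 154 bases before the start. AHSG held the C/EBP form as TTATGCAA from 59 to 52 bases before its start, and of 3 RBP4 windows 1 held TTATGCAA and another the STAT palindrome as TTCAGGGAA. The upstream window of ORM1 held none of the 4 motifs, and promoters of HP, HPR, ORM2 and TTR were not used here. Among 35093 upstream windows, 9.16% held CTGGGAA, 6.57% held TTCNNNGAA and 9.05% held TTNNGCAA. These motifs do not overlap in the windows shown, and a match is a description of letters, not of binding.

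Albumin (ALB), the main carrier of plasma fatty acids, lies on the plus strand of chromosome 4 from 73397114 to 73421412. ALB had 12761, 11173 and 12084 CPM in PTPF-labelled libraries, against 14360, 14790 and 15451 CPM in STATF-labelled libraries. Every PTPF-labelled library was below every STATF-labelled library. The log2 fold change was -0.31 (SE 0.07, 95% interval -0.45 to -0.17, edgeR adjusted p = 0.00164), or 0.808 times the STATF-labelled level. ALB ranked 9th by counts among all genes in each PTPF-labelled library and 5th or 6th in each STATF-labelled library. Its upstream bases are shown because they hold the HNF1 form GTTAATNAT, found in 0.724% of windows, as GTTAATAAT from 61 to 53 bases before the RefSeq start. A C/EBP match, TTTGGCAA, lies from 125 to 118. The region is chr4:73404037-73404286 on the plus strand of GRCh38.p14, within the gene span given above, and capitals mark both matches.
ALB: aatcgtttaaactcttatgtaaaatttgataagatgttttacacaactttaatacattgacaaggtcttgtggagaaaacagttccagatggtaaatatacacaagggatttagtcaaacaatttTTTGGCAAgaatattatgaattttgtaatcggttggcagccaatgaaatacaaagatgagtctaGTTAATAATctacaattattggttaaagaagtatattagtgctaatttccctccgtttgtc

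Transthyretin (TTR), the thyroxine carrier of plasma, lies on the plus strand of chromosome 18 from 31557010 to 31599021. TTR had 1416, 1122 and 1264 CPM in PTPF-labelled libraries, against 1425, 1276 and 1417 CPM in STATF-labelled libraries. RBP4, which carries retinol and circulates bound to transthyretin, lies on the minus strand of chromosome 10 from 93591687 to 93601744. RBP4 had 2782, 2172 and 2511 CPM in PTPF-labelled libraries, against 2840, 2586 and 2795 CPM in STATF-labelled libraries. The groups overlapped for both genes. The log2 fold changes were -0.12 (95% interval -0.27 to 0.04, edgeR adjusted p = 0.298) for TTR and -0.14 (95% interval -0.29 to 0.02, edgeR adjusted p = 0.209) for RBP4. Without PTPF replicate 1 both were called lower, TTR at -0.20 (edgeR adjusted p = 0.0137) and RBP4 at -0.23 (edgeR adjusted p = 0.00672). With library totals as the only scaling they were also called, at -0.18 (edgeR adjusted p = 0.0425) and -0.21 (edgeR adjusted p = 0.0226).

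Fetuin-A (AHSG), which keeps calcium phosphate in solution, lies on the plus strand of chromosome 3 from 186612923 to 186621318. AHSG had 20.4, 15.4 and 16 CPM in PTPF-labelled libraries, against 21, 23.5 and 18.9 CPM in STATF-labelled libraries. It was the least abundant member by far, on 523 to 979 counts per library, and the groups overlapped. The log2 fold change was -0.30 (SE 0.099, edgeR adjusted p = 0.0376). That call was lost without PTPF replicate 2 (edgeR adjusted p = 0.161), PTPF replicate 3 (0.147), STATF replicate 1 (0.0983) or STATF replicate 2 (0.181). The two-sided exact permutation p of log2 CPM was 0.1 for the 6 positive members and ALB, which 3 against 3 libraries cannot go below. It was 0.2 for TTR, AHSG and RBP4.

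**Figure D2:**
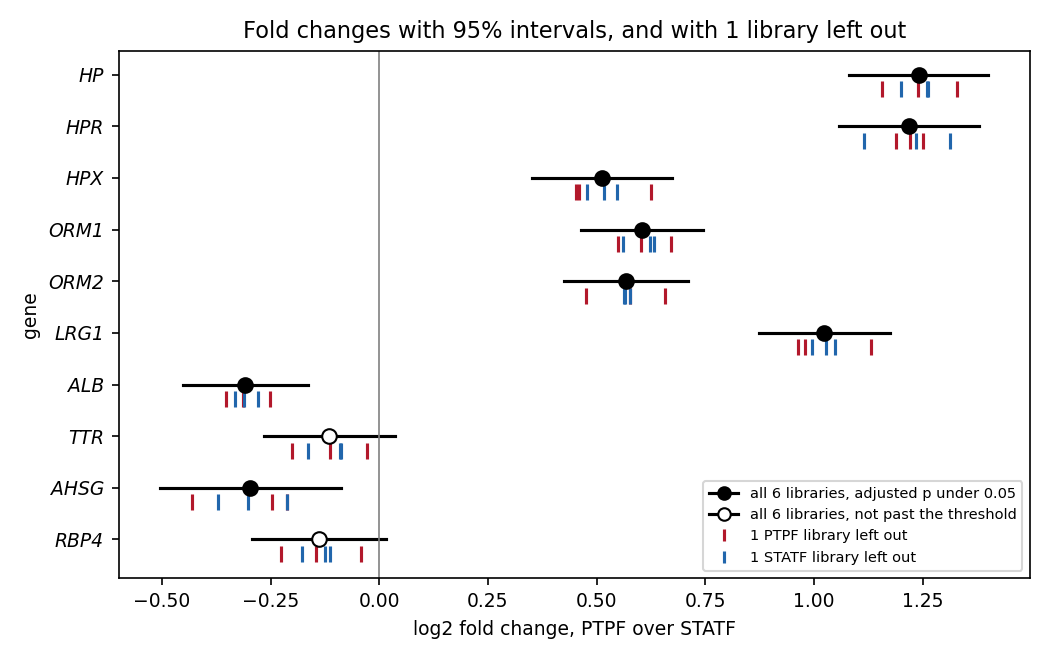
Log2 fold change of PTPF-labelled over STATF-labelled libraries (x axis) for each member, with the 95% interval from edgeR as a line and a filled point where the adjusted p was under 0.05. Small ticks give the value with 1 library left out (red for a PTPF-labelled library, blue for a STATF-labelled library), and they stay on the same side of 0 for all 10 members.

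Members of the positive set did not move by the same amount. HP had 5.29, 4.93 and 5.11 counts per ORM1 count in PTPF-labelled libraries, against 3.31, 3.30 and 3.27 in STATF-labelled libraries, a ratio that needs no scaling between libraries. HP counts per HPX count averaged 28 ± 1.63 with PTPF labels and 16.9 ± 1.21 with STATF labels (SD, n = 3 each), and those per LRG1 count averaged 61.5 ± 4.05 and 52.8 ± 1.05. LRG1 counts per HPX count averaged 0.455 ± 0.0077 with PTPF labels and 0.319 ± 0.016 with STATF labels (SD, n = 3 each). For these 4 ratios the groups did not overlap, and each had a two-sided exact permutation p of 0.1, the smallest possible. ORM1 counts per HPX count, at 5.49 ± 0.4 with PTPF labels and 5.12 ± 0.37 with STATF labels (SD, n = 3 each), overlapped between groups (exact permutation p = 0.4). In all 17 ratios and shares of counts were examined, and only the shares of HPR and ORM2 in their pairs were set in advance. Most of the 17 reached the smallest possible p, so reaching it does not set a ratio apart. With 3 against 3 libraries no p could pass 0.05, adjusted or not.

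HP and ALB differed in order between the labels. HP had 1.58, 1.43 and 1.5 counts per ALB count in PTPF-labelled libraries, against 0.503, 0.530 and 0.510 in STATF-labelled libraries. In reads, HP thus exceeded ALB in each PTPF-labelled library and stood well below it in each STATF-labelled library. RBP4 and TTR, the carriers that travel together, kept a nearly constant proportion, with 1.96, 1.94 and 1.99 RBP4 counts per TTR count in PTPF-labelled libraries, against 1.99, 2.03 and 1.97 in STATF-labelled libraries (exact permutation p = 0.2). TTR counts per ALB count were 0.105 ± 0.0053 with PTPF labels and 0.0924 ± 0.0065 with STATF labels (SD, n = 3 each), without overlap (exact permutation p = 0.1). AHSG counts per ALB count were 0.00143 ± 0.00014 with PTPF labels and 0.00143 ± 0.00019 with STATF labels (SD, n = 3 each; exact permutation p = 0.9).

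**Figure D3:**
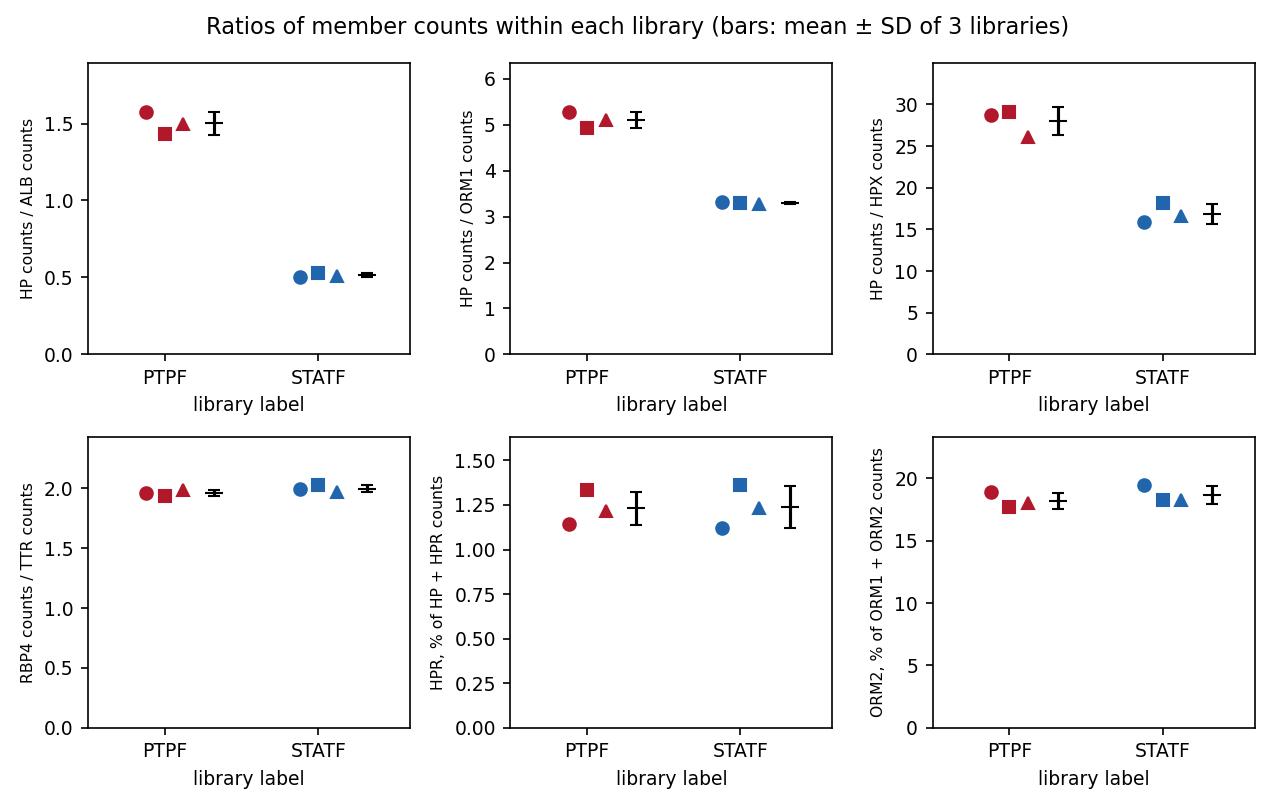
Ratio of counts of a pair of members within each library (y axis, from 0), for PTPF-labelled (red) and STATF-labelled (blue) libraries, with mean and SD over 3 libraries in black. HP against ALB, ORM1 and HPX separates the groups, while RBP4 against TTR and the shares of HPR and ORM2 in their pairs overlap.

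The 6 positive members together took 2.48%, 2.09% and 2.33% of all counts in PTPF-labelled libraries, against 1.09%, 1.17% and 1.17% in STATF-labelled libraries. The 4 negative members took 1.62%, 1.44% and 1.56% in PTPF-labelled libraries, against 1.92%, 1.91% and 2% in STATF-labelled libraries. HP and ALB make up most of these sums. Levels between genes were compared per kilobase of the deposited gene length. On that scale ORM1, ALB, HP and RBP4 were the 4 highest members in both groups, led by ORM1 (3919 ± 314 CPM per kilobase) in PTPF-labelled and ALB (4402 ± 163) in STATF-labelled libraries (SD, n = 3 each). In PTPF-labelled libraries ALB (3555 ± 236 CPM per kilobase) and HP (3344 ± 386) followed ORM1. Within each PTPF-labelled library the order was the same, with ORM1 at 1.12, 1.09 and 1.10 times and HP at 0.986, 0.893 and 0.937 times the ALB level per kilobase. In STATF-labelled libraries ORM1 (2577 ± 136.3), RBP4 (1891 ± 93.5) and HP (1415 ± 68.1 CPM per kilobase) followed ALB, each apart from its neighbour by more than their SDs. Below these 4 came, by group means, ORM2, TTR, HPX, HPR, LRG1 and AHSG in both groups. HPR (50 ± 6.89 CPM per kilobase) and LRG1 (46.2 ± 1.67) lay within their spread in STATF-labelled libraries, where replicate 1 had them in the opposite order. AHSG had 7.33 ± 1.15 CPM per kilobase with PTPF labels and 8.99 ± 0.98 with STATF labels.

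The deposited length joins all annotated exons, retained introns included, and for HP it is 5405 bases, against 1482 for its longest coding transcript. Per kilobase of that transcript, a choice made after the data were seen, HP led in PTPF-labelled libraries with 12197 ± 1406 CPM per kilobase and ALB in STATF-labelled libraries with 6570 ± 243 (SD, n = 3 each). ALB then had 5305 ± 352 CPM per kilobase with PTPF labels and HP 5162 ± 248 with STATF labels. The order among members therefore depends on the length used, while the fold changes do not.

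The PTPF-labelled libraries differed from each other in a way that the members shared. PTPF replicate 2 had the lowest CPM of its group in all 10 members, and PTPF replicate 1 the highest in 9, with LRG1 highest in PTPF replicate 3. Over the 9402 genes with a mean of at least 10 CPM, PTPF replicate 2 was lowest of its group in 36.7% and PTPF replicate 1 highest in 42%. The same libraries were lowest and highest in the summed CPM of the hepatocyte markers, at 27526 in PTPF replicate 2 and 31640 in PTPF replicate 1. In STATF-labelled libraries this sum was 20619 to 21649 CPM. The sum consists mostly of SERPINA1, itself a positive acute-phase gene. SERPINA1 had 26047, 22027 and 23149 CPM in PTPF-labelled libraries, against 14385, 15000 and 14008 CPM in STATF-labelled libraries. The order and the group difference of the sum are therefore those of SERPINA1, and the sum does not describe the other markers. In STATF-labelled libraries replicate 3 was highest in 6 members and replicate 1 lowest in 6. Over the same 9402 genes, STATF replicate 3 was highest of its group in 35.8% and STATF replicate 1 lowest in 35.8%. The coefficient of variation of HP was 11.5% with PTPF labels and 4.81% with STATF labels, and that of ORM2 was 12.2% and 0.974%. What set PTPF replicate 2 apart was not tested.

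**Figure D4:**
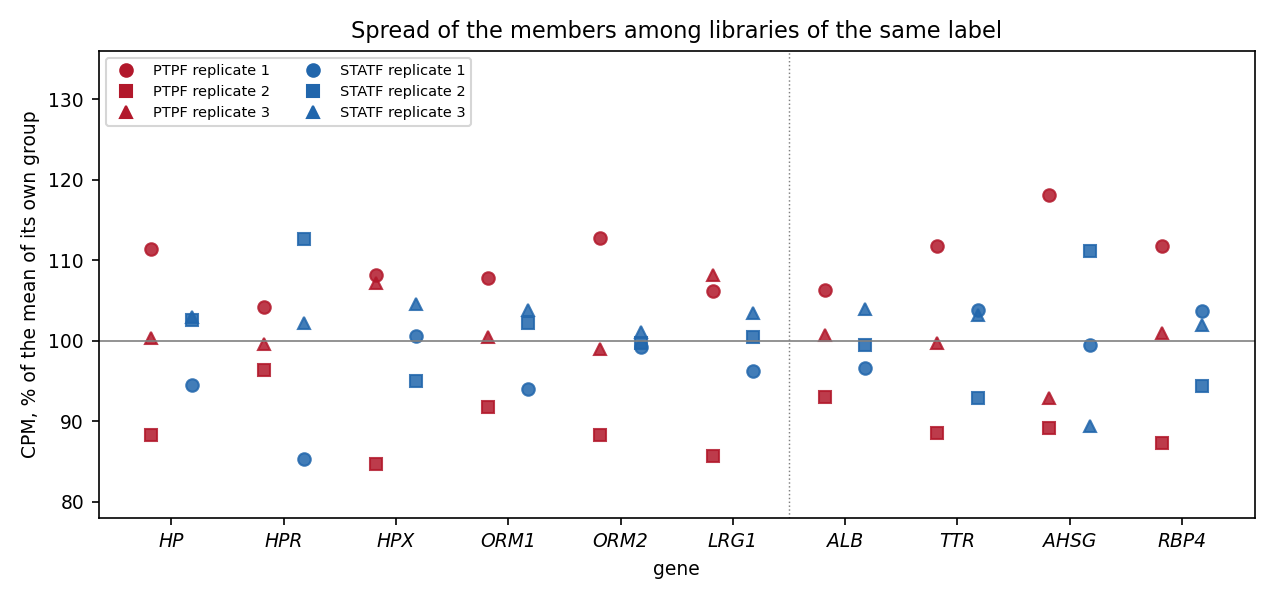
CPM of each member in each library as a percentage of the mean of the libraries with the same label (y axis), by gene (x axis), with PTPF-labelled libraries in red and STATF-labelled libraries in blue. The red squares of PTPF replicate 2 are the lowest red points for all 10 members.

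Other acute-phase genes were described from lists chosen with earlier results of these data known. Of 24 other positive acute-phase genes tested, 19 were called higher by edgeR and 0 lower, beside 10.1% and 11.6% of all genes, and the list had its median at 0.82 on the log2 scale. Lower calls were also 0 with DESeq2, with limma-voom and at an unadjusted p of 0.05. SERPINA1 is also on the hepatocyte list, and HAMP, like A1BG and STRA6 of the lists below, did not pass the filter. The fibrinogen gamma chain FGG averaged 11049 ± 836 CPM with PTPF labels and 4503 ± 262 CPM with STATF labels (SD, n = 3 each). LBP, which hands lipopolysaccharide to CD14, averaged 2049 ± 196 CPM with PTPF labels and 937 ± 19.2 CPM with STATF labels (SD, n = 3 each). SERPINA3, an inhibitor of chymotrypsin-like proteases, and serum amyloid SAA2 had log2 fold changes of 1.53 and 1.05. The 5 that did not pass the test were C3, CFB, ITIH4, MBL2 and AGT, named after their values were seen, and C3 averaged 5045 ± 352 CPM with PTPF labels and 5062 ± 65.5 CPM with STATF labels.

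Of 18 other negative acute-phase or constitutive plasma proteins tested, edgeR called 4 lower and 0 higher, beside 11.6% and 10.1% of all genes, around a median of -0.10 on the log2 scale. Lower calls numbered 8 with library totals as the only scaling and 7 with the replicate number as a block. Higher calls were also 0 with DESeq2, with limma-voom and at an unadjusted p of 0.05. Transferrin (TF), the iron carrier, is also on the hepatocyte list. It averaged 2233 ± 189 CPM with PTPF labels and 2915 ± 62.8 CPM with STATF labels (SD, n = 3 each). The thyroxine-binding globulin SERPINA7, which shares its cargo with TTR, averaged 73.9 ± 8.22 CPM with PTPF labels and 129.5 ± 11.1 CPM with STATF labels (SD, n = 3 each). ITIH2, a carrier of hyaluronan, had a log2 fold change of -0.50 (edgeR adjusted p = 3.7e-08). The apolipoprotein APOA1 had -0.25 (edgeR adjusted p = 0.0324), and that call was lost with DESeq2 (adjusted p = 0.162) and without PTPF replicate 2 (edgeR adjusted p = 0.155), PTPF replicate 3 (0.0668), STATF replicate 1 (0.103) or STATF replicate 3 (0.172). Without PTPF replicate 2, 2 genes of this list were called higher.

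**Figure D5:**
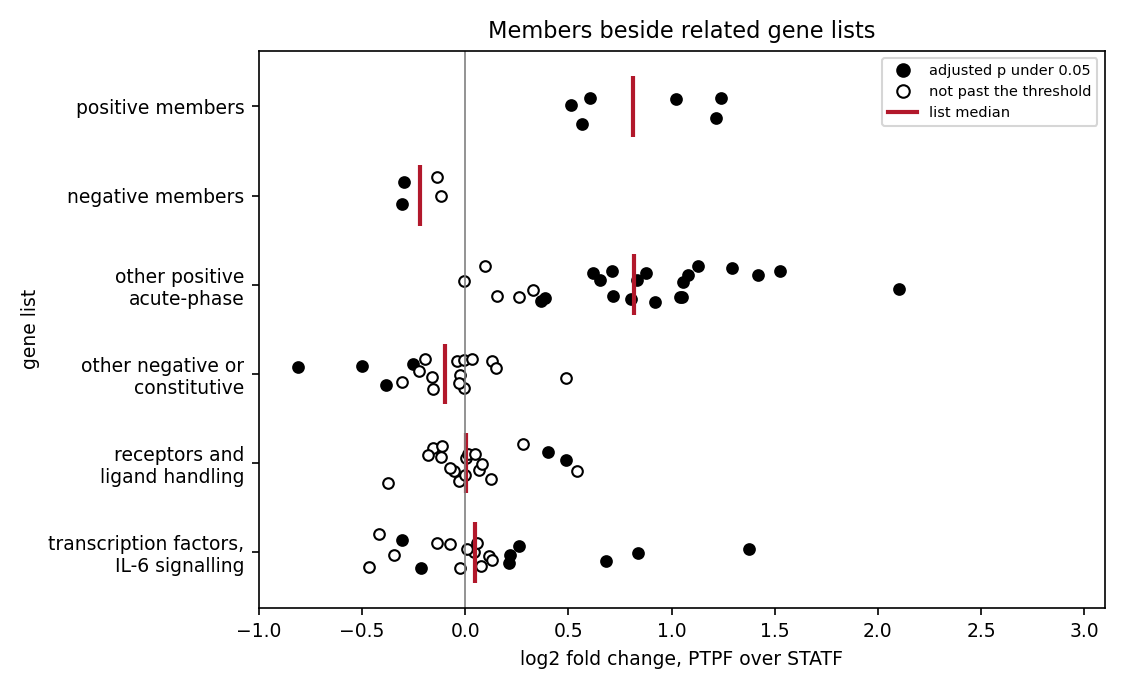
Log2 fold change of PTPF-labelled over STATF-labelled libraries (x axis) for the members and for 4 related gene lists (rows), with filled points where the edgeR adjusted p was under 0.05 and a red bar at the median of each list. Both positive lists lie mostly right of 0, with medians of 0.81 (members, HPR included) and 0.82, and the receptors lie around 0.

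Of 19 genes tested that receive or process the carried ligands, edgeR called 2 higher, near the 10.1% of all genes, and 0 lower, beside 11.6% of all genes, around a median of 0.00 on the log2 scale. Lower calls were also 0 with DESeq2 and limma-voom, and 1 gene was lower at an unadjusted p of 0.05. ASGR1, a subunit of the receptor that clears desialylated glycoproteins such as orosomucoids, averaged 74.4 ± 10.3 CPM with PTPF labels and 53 ± 0.597 CPM with STATF labels (SD, n = 3 each). HMOX1, which degrades haem, averaged 71.5 ± 6.17 CPM with PTPF labels and 54.2 ± 4.07 CPM with STATF labels (SD, n = 3 each). Lower calls numbered 4 with library totals as the only scaling, 3 without PTPF replicate 1, and 1 each with the replicate number as a block and with a filter of at least 50 counts. The haptoglobin and haemoglobin receptor CD163, a macrophage gene, averaged 1.1 ± 0.315 CPM with PTPF labels and 1.44 ± 0.136 CPM with STATF labels (SD, n = 3 each).

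Among 20 transcription factors and interleukin-6 signalling genes edgeR called 6 higher, beside 10.1% of all genes, and 2 lower, near the 11.6% of all genes, around a median of 0.05 on the log2 scale. Scaling by library totals alone gave 4 lower calls. The feedback inhibitor SOCS3 had a log2 fold change of 1.37, and CEBPD, a C/EBP factor that interleukin-6 induces, averaged 237.4 ± 9.68 CPM with PTPF labels and 132.8 ± 7.07 CPM with STATF labels (SD, n = 3 each). NFIL3, a basic leucine zipper repressor, had a log2 fold change of 0.68. The kinase JAK1 averaged 232.3 ± 2.54 CPM with PTPF labels and 287.4 ± 3.89 CPM with STATF labels (SD, n = 3 each). The other gene called lower, CEBPA, named after its value was seen, had a log2 fold change of -0.21, and this list held 1 lower gene when PTPF replicate 2 or any 1 of the STATF replicates was left out.

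Likeness to HP was measured as the Euclidean distance in log2 CPM, centred on the mean of the 6 libraries, over 5176 protein-coding genes whose mean log2 CPM reached 5. The nearest were FGG (0.114), LBP (0.153) and GADD45B (0.171), a stress-inducible gene at 124 ± 10.9 CPM with PTPF labels and 56.9 ± 1.98 CPM with STATF labels (SD, n = 3 each). HPR came 12th and LRG1 21st, while ORM1, ORM2 and HPX came 90th, 100th and 131st. Nearest to ALB were ACADM (0.0761), an enzyme of fatty acid oxidation, ATP5MC3 (0.0809), a subunit of ATP synthase, and NUB1 (0.0873). Their log2 fold changes were -0.33, -0.27 and -0.26. RBP4 and TTR came 759th and 966th in likeness to ALB. Both distances rest on 6 libraries in 2 groups. They include the difference between groups, so fold changes close to those of HP or ALB follow from the selection.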

How the data were processed

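Polyadenylated RNA of 6 HepaRG libraries was sequenced. The submitters' processing notes name CASAVA 1.8, HISAT2 2.0.5, featureCounts 1.5.0-p3 and the build GRCh38. Annotation release, strand setting and treatment of multi-mapping reads: not given in the sources used here. Deposited values were unnormalized read counts for each gene, beside an other unit, the length of each gene in bases. Positions of all 10 members equal those in GENCODE 29.

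Samples were grouped by title. Low genes were removed by filterByExpr, TMM factors lay between 0.953 and 1.03, and the test was that of edgeR 4.0.16 in R 4.3.3 (glmQLFit, robust, group only), with Benjamini-Hochberg adjustment over all genes tested and 0.05 as the threshold. Positive fold changes (log2) are those with more in libraries labelled PTPF. Exact permutation tests used scipy 1.17.1. Alternatives were other scalings and filters, DESeq2 1.42.0, limma-voom (limma 3.58.1), a replicate block, a threshold of 0.01 and leaving out each library. The script was tested on simulated data.

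The limit set by a zero, 3 counts, equals 0.0735 to 0.0903 CPM and covers counting error only. Within groups, chi-square per degree of freedom was 4.01 to 10.9, more than sampling noise alone gives, so each library was counted. Members and lists were chosen with earlier results of these data known. Named genes are the members, the siRNA targets, from each list up to 4 called genes ranked by adjusted p (the 2 with most CPM where none passed), and the 3 genes most like HP and ALB. Of these, MARCO, PECAM1 and STAB2 enter only through their lists.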

Additional observations from a re-analysis of the deposited data

How the results depend on the processing

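Across 17 alternatives the log2 fold changes of the 10 members kept their direction, and the calls of the 6 positive members and ALB were the same in each. HP ranged from 1.16 to 1.33, HPX from 0.45 to 0.63 and ALB from -0.37 to -0.25. The AHSG call was lost in 5 (the threshold of 0.01, at -0.30, and leaving out PTPF replicate 2 or 3 or STATF replicate 1 or 2), and TTR (-0.18) and RBP4 (-0.21) were gained with library totals and without PTPF replicate 1 (-0.20 and -0.23). With 1 library left out, AHSG ranged from -0.43 to -0.21, TTR from -0.20 to -0.027 and RBP4 from -0.23 to -0.043, and 1 to 4 of the 4 negative members were called.

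Library totals moved the median of all genes to -0.06 and gave 1164 higher genes, 28.1% of 4145 calls, against 1801, or 46.6% of 3863, with TMM. They called 4 negative members, 8 other negative genes, 4 ligand-handling genes and 4 transcription factors or signalling genes lower. A threshold of 0.01 left 2551 calls, 1137 of them higher, 1 negative member and 1 lower signalling gene, by construction. At least 50 counts gave 1 lower ligand-handling gene. With 1 library left out, the other negative list had 0 to 2 higher genes, the ligand-handling list 0 to 3 lower and the signalling list 1 to 2 lower.

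The replicate block gave 4145 calls, 7 lower other negative genes and 1 lower ligand-handling gene, and changed no member's call. Deviations of same-numbered libraries correlated at 0.000769 to 0.0578, and those of other pairs at -0.0699 to 0.0332. PTPF replicates 1 and 2 correlated best with their own number, and PTPF replicate 3 did not. With 3 libraries per group these values cannot decide whether libraries were paired. The main fit had no block because the labels do not say that the numbers mark a shared culture, day or batch.

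Without mitochondrial genes in the total, positive members took 2.81% with PTPF labels and 1.41% with STATF labels, and negative members 1.88% and 2.40%. Per kilobase, HPR took 3.38% of its pair with PTPF labels and 3.40% with STATF labels, and ORM2 20.9% and 21.4%. Among members AHSG had the fewest counts, 523 to 979 per library. Its coefficient of variation was 15.7% with PTPF labels and 10.9% with STATF labels, and the part of depth in this spread was not tested.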
